A study of Mus musculus with 43 samples.

Results

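Clade A serine protease inhibitor genes were read in the successive parts of the proximal tubule, in kidneys of female mice. The members were chosen by symbol: the 10 genes Serpina1a, Serpina1b, Serpina1c, Serpina1d, Serpina1e, Serpina1f, Serpina6, Serpina10, Serpina3n and Serpina3g, of 54532 genes in the expression table. The table's own annotation names clade A for 10 of the 10. They were chosen with their levels in these same columns known, so the differences between segments below are a description with no test.

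The tissue came from C57BL/6 mice aged 6 to 8 weeks, and no treatment or engineered allele is named in the labels. Tubule parts S1, S2 and S3, in the order in which filtrate passes them, were dissected by hand, with 2 to 5 tubules collected for a sample. The RNA-seq libraries were all female and numbered 6 for S1, 6 for S2 and 7 for S3. They are given as 1 value of TPM (a level corrected for transcript length and scaled to a fixed total per column) per gene and segment, without a spread or a depth, so no difference below has a replicate check. The titles carry numbers that may mark animals: 2 numbers for S1, 3 for S2 and 4 for S3, with 0 shared by S1 and S2. The labels list another 24 samples of ATAC-seq, which were not analysed here.

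Serpins expose a loop that serves as bait: a protease that cuts it is trapped in a covalent complex, and both molecules are spent. The Serpina1 genes of the mouse are copies of the gene for alpha-1-antitrypsin, the main plasma inhibitor of neutrophil elastase, which is made chiefly by hepatocytes. Some clade A serpins inhibit no protease: Serpina6 is corticosteroid-binding globulin, the plasma carrier of glucocorticoids. In the kidney the proximal tubule is best known for taking up plasma proteins of this size after filtration.

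The 10 members were almost silent in S1, and in S2 and S3 2 of them carried nearly all of the summed level. The 10 members together summed to 0.9 TPM in S1, 996.4 TPM in S2 and 1657.0 TPM in S3. Serpina1f made up the greater part of this sum and Serpina1d most of the rest. Of all 53 serpin genes listed here, the 10 members held 0.643% of the summed TPM of S1, 70.2% of that of S2 and 73.3% of that of S3.

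**Figure D1:**
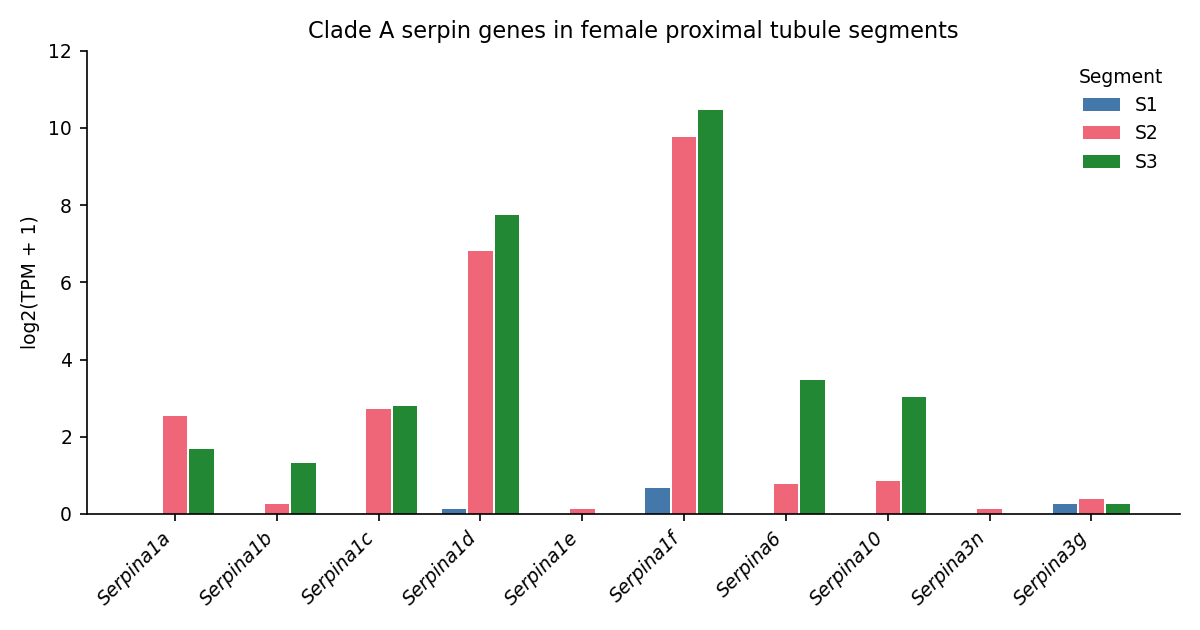
Level of each of the 10 members as log2(TPM + 1), with bars for S1, S2 and S3 and 1 deposited value per bar. Serpina1f and Serpina1d stand at 1415.8 and 214.2 TPM in S3, and the bars of S1 are at or near 0 throughout.

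Serpina1f is a divergent relative of the alpha-1-antitrypsin genes, annotated as protein coding on chromosome 12 (GRCm38.p6, 103688044 to 103695529). It stood at 0.6 TPM in S1, 872.5 TPM in S2 and 1415.8 TPM in S3. It was the gene with the 119th highest level in S2 and the 79th highest in S3. The difference was 9.09 for S2 minus S1 and 9.79 for S3 minus S1 on the log2(TPM + 1) scale. Among the 16053 genes of at least 1 TPM in at least 1 segment, these ranked 3rd and 5th from the top. S3 was 1.62-fold above S2, which is under the 2-fold threshold used here. An annotated lncRNA gene, Gm46373, overlaps 877 bases of Serpina1f. The protocol names no strand marking, so reads from that stretch could come from either gene.

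Serpina1d is a copy of the alpha-1-antitrypsin gene, on chromosome 12 from 103763587 to 103773633. It stood at 0.1 TPM in S1, 111.3 TPM in S2 and 214.2 TPM in S3. The difference was 6.67 for S2 minus S1 and 7.61 for S3 minus S1, each the 27th from the top among the genes compared. S3 was 1.92-fold above S2, just under the 2-fold threshold; median-of-ratios scaling put this difference past it, at 1.10.

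The other copies of alpha-1-antitrypsin were far lower. Serpina1c stood at 0.0 TPM in S1, 5.6 TPM in S2 and 5.9 TPM in S3. Serpina1a stood at 0.0 TPM in S1, 4.8 TPM in S2 and 2.2 TPM in S3, so it was the one detected copy whose level was lower in S3 than in S2. That difference was -0.86, under 2-fold, and with pseudocount 0.1 it was -1.09. Serpina1b stood at 0.0 TPM in S1, 0.2 TPM in S2 and 1.5 TPM in S3. Serpina1e did not reach 1 TPM in any segment, with 0.0, 0.1 and 0.0 TPM.

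Serpina1d took 95.7% of the summed level of the 5 copies in S3 and 91.2% in S2. Serpina1c took 2.64% in S3 and 4.59% in S2, and Serpina1a 0.983% in S3 and 3.93% in S2. These 5 genes are near-identical, so a read from one can match another, and the values of single copies depend on how such reads were divided. Their sum depends less on that division: it was 0.1 TPM in S1, 122.0 TPM in S2 and 223.8 TPM in S3. The sum differed by 6.81 for S2 minus S1, by 7.67 for S3 minus S1 and by 0.87 for S3 minus S2. Median-of-ratios scaling raised the last value past 2-fold, to 1.04.

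How alike the copies are also shows in their promoters. RefSeq promoter windows (GRCm38.p6, 250 bases before to 50 after an annotated start) matched 8 of the 10 members; Serpina6 and Serpina10 are named only. The stretches below run 5′ to 3′ along the gene. They are shown because the abundant copy, Serpina1d, and the other copies, at far lower levels, carry almost the same letters. Capitals mark the longest run of letters that the 5 copies share.

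Serpina1d chr12:103773605-103773748 (- strand): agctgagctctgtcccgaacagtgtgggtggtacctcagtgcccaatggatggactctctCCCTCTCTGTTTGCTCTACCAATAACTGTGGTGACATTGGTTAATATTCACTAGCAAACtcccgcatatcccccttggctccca
Serpina1c chr12:103904933-103905076 (- strand): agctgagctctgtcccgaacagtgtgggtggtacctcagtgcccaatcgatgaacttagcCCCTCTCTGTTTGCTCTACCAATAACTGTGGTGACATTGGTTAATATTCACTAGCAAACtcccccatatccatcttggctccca
Serpina1a chr12:103863596-103863739 (- strand): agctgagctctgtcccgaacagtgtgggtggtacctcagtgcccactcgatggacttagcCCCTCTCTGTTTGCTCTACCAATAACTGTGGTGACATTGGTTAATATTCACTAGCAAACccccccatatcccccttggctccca
Serpina1b chr12:103738171-103738314 (- strand): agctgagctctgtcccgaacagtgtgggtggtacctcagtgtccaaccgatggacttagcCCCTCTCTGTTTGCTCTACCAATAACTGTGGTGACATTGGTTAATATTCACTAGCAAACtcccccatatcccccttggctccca
Serpina1e chr12:103956931-103957074 (- strand): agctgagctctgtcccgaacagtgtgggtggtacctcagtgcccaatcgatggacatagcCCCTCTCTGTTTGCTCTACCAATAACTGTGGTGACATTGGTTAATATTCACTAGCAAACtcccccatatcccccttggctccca

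Of the 144 bases, 130 were the same in all 5 copies. The 10 pairs of copies differed at 3 to 9 bases, which is 93.8% to 97.9% identity. Serpina1d was the most divergent copy. It differed from Serpina1e, the copy with the lowest level, at 7 bases, from Serpina1a and Serpina1b at 8 each and from Serpina1c at 9. The pairs without Serpina1d differed at 3 to 5 bases. The shared run of 59 bases began at position -55 in Serpina1d, -60 in Serpina1a, -65 in Serpina1b, -66 in Serpina1c and -117 in Serpina1e, where negative positions count bases before the annotated start.

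The promoter of Serpina1f was a different sequence, although its gene shared the pattern of high S2 and S3 and low S1. At the best ungapped placement it matched the Serpina1d stretch at 48 of 144 bases, or 33.3%. It is shown whole, with the matches to the C/EBP and STAT motifs searched in capitals.

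Serpina1f chr12:103695480-103695779 (- strand): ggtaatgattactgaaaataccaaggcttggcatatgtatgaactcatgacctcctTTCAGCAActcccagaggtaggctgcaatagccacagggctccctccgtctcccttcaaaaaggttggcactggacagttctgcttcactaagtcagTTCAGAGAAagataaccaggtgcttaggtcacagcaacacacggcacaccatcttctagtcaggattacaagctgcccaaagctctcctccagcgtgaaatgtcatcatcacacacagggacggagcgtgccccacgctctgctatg

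On either strand, the C/EBP form TTGCNNAA was found in 5 of the 8 member promoters (Serpina1a, Serpina1b, Serpina1d, Serpina1e and Serpina1f) and in 10.8% of 32851 promoter windows of the same length. The STAT form TTCNNNGAA was in 2 of 8 (Serpina1f and Serpina3g) and in 8.30% of all. The TATA box TATAAA was in 0 of 8 and in 13.6% of all. Among the copies, the C/EBP match began at -161 in Serpina1b, -149 in Serpina1d and -211 in Serpina1e. In Serpina1a it lay elsewhere, at position 25 past the annotated start, and Serpina1c had none. The 5 copies share most of their sequence, so they do not count as separate cases. A match is a string of letters and not a shown binding site.

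Serpina6 and Serpina10 had the largest S3 minus S2 differences among the 10 members; Serpina1b was the other one past 2-fold, at 1.06. Serpina6, corticosteroid-binding globulin, stood at 0.0 TPM in S1, 0.7 TPM in S2 and 10.1 TPM in S3. Its S3 minus S2 difference of 2.71 ranked 15th among the genes compared. Serpina10 encodes the protein Z-dependent protease inhibitor, which acts on coagulation factor Xa. It stood at 0.0 TPM in S1, 0.8 TPM in S2 and 7.1 TPM in S3, and its S3 minus S2 difference of 2.17 ranked 46th. Both lay under 2-fold for S2 minus S1, at 0.77 and 0.85. That call rested on the pseudocount: with 0.1 in place of 1 the differences were 3 and 3.17.

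Serpina3n and Serpina3g were at background in each segment. Serpina3n, an acute-phase inhibitor of granzyme B, was listed at 0.0 TPM in S1, 0.1 TPM in S2 and 0.0 TPM in S3. Serpina3g, an intracellular inhibitor of cathepsins known from leukocytes, was listed at 0.2 TPM in S1, 0.3 TPM in S2 and 0.2 TPM in S3. Values are rounded to 1 decimal, so no order can be read from them.

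By count, 7 of the 10 members reached 1 TPM in at least 1 segment. Since none of the 7 reached it in S1, each could pass only through S2 or S3, and the counts that follow are no support for a direction. For S2 minus S1, 4 were at least 2-fold higher (Serpina1f, Serpina1d, Serpina1c and Serpina1a) and 0 lower, beside 17.7% higher and 6.62% lower among all genes compared. For S3 minus S1, 7 were higher and 0 lower, beside 13.1% and 10.5%. For S3 minus S2, 3 were higher (Serpina6, Serpina10 and Serpina1b) and 0 lower, beside 2.24% and 8.74%. These shares of all genes moved with the scaling. Quantile normalization gave 1729 genes higher and 1521 lower for S2 minus S1, against 2840 and 1062 as deposited. For S3 minus S2 it gave 540 higher and 865 lower, against 359 and 1403. With the 5 copies summed into 1 feature, the members higher numbered 2, 4 and 2 in the 3 contrasts.

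**Figure D2:**
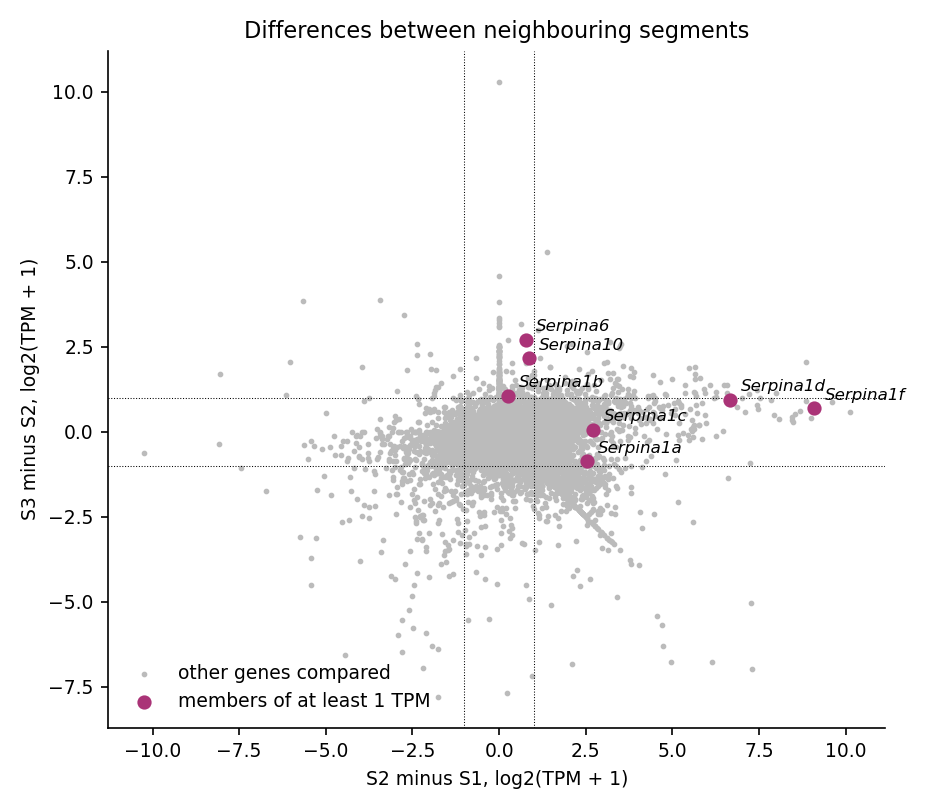
Each point is a gene of at least 1 TPM in at least 1 segment, placed by its S2 minus S1 difference (x axis) and S3 minus S2 difference (y axis) on the log2(TPM + 1) scale; dotted lines mark 2-fold. Serpina1f and Serpina1d lie far right at 9.09 and 6.67, while Serpina6 and Serpina10 lie high at 2.71 and 2.17 on the y axis.

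The 10 members lie in 1 gene cluster on chromosome 12, from the start of Serpina10 at 103616675 to the end of Serpina3n at 104414334 (GRCm38.p6), a span of 798 kb. RefSeq annotates 41 genes and pseudogenes there, and 37 were in the table. Of these 37, 0 reached 1 TPM in S1, 4 did so in S2 and 7 did so in S3. The 7 were the members named above, and they lay together in the first 288 kb, from Serpina10 to Serpina1c. The highest TPM of any non-member within the cluster was 0.7, for Gm5656, a pseudogene next to Serpina1f. Detected and silent genes alternated within the first 288 kb: Serpina16, between Serpina6 and Serpina1f, did not pass 0.1 TPM. The protein-coding neighbours outside the cluster were also low: Ppp4r4 stood at 0.7 TPM in S1, 0.8 TPM in S2 and 2.2 TPM in S3, and Gsc, a homeobox gene, at 0.0, 0.1 and 0.0 TPM.

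**Figure D3:**
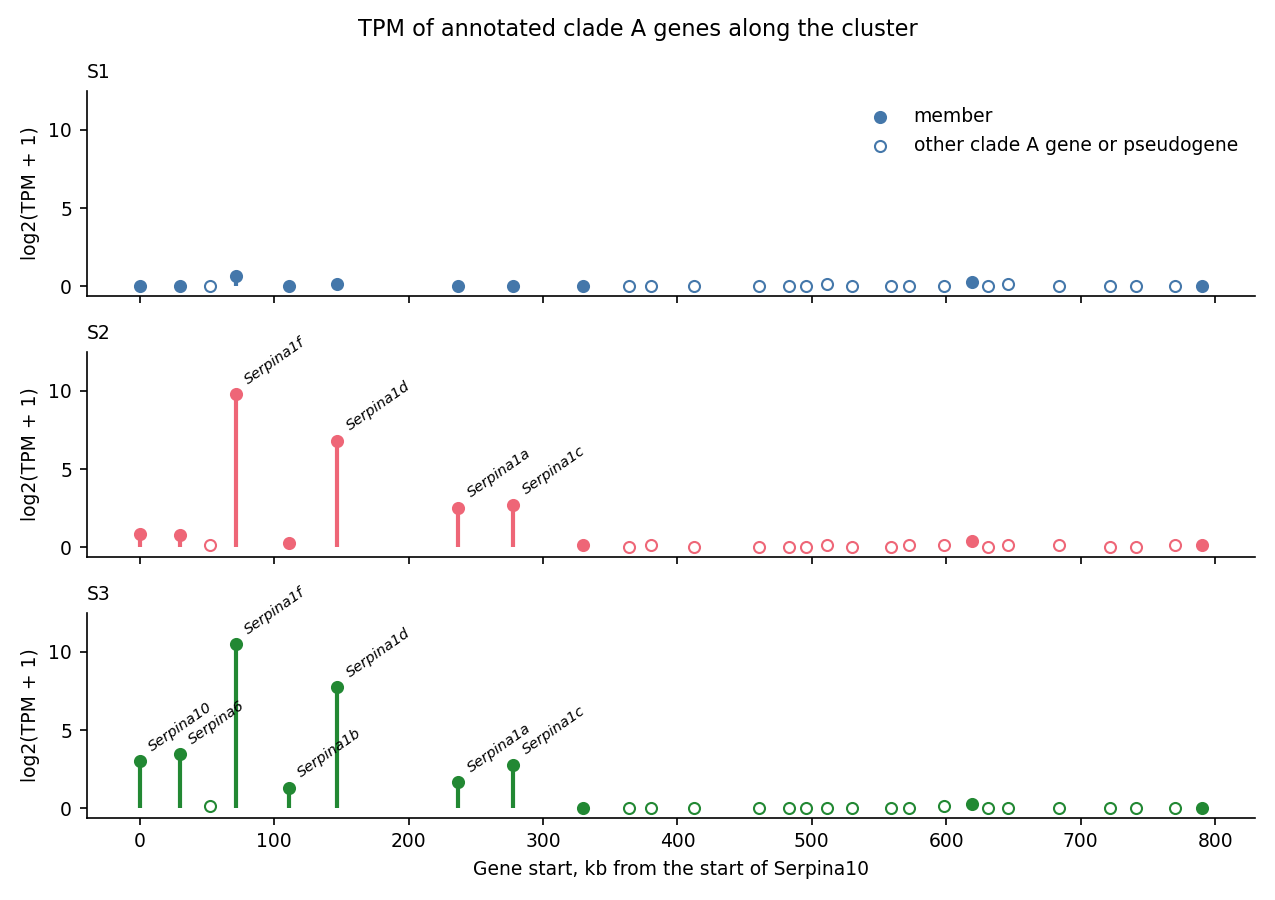
Level as log2(TPM + 1) of each gene or pseudogene of the cluster with a Serpina symbol. The x axis is the distance in kb from the start of Serpina10, with 1 panel per segment. Filled points are members, and pseudogenes with Gm symbols are not plotted. The 7 genes of at least 1 TPM lie at the left end, and none of the clade A genes plotted reaches 1 TPM in S1.

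The genes whose profiles lay nearest were found by Euclidean distance over the 3 log2(TPM + 1) values. Nearest to Serpina1f was Slc22a7, an organic anion transporter, at distance 0.306, with 0.7 TPM in S1, 877.0 TPM in S2 and 1154.9 TPM in S3. The organic anion transporter Slc22a19 (distance 0.702) and the steroid-metabolising cytochrome P450 gene Cyp2a4 (0.787) followed. All 3 are on the list of S3 markers given below. Nearest to Serpina1d was Apela, a peptide ligand of the apelin receptor, at distance 0.265, with 0.2 TPM in S1, 114.5 TPM in S2 and 251.3 TPM in S3. It was followed by the drug and bile salt exporter Abcc3 (0.307) and by Sec14l3 (0.357). Nearest to Serpina6 was the beta-defensin gene Defb26 at 0.573, with 0.1 TPM in S1, 1.5 TPM in S2 and 10.2 TPM in S3, then the potassium channel gene Kcna1 (0.774) and Ins2 (0.780). Likeness over 3 values is a description.

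Of 17 other clade A genes, Agt was the one above background. Agt encodes angiotensinogen, the substrate of renin, and lies outside the chromosome 12 cluster. It stood at 11.6 TPM in S1, 184.2 TPM in S2 and 389.6 TPM in S3. S2 was 15.9-fold and S3 33.6-fold above S1, and S3 2.12-fold above S2. It thus ran in the same order as Serpina1f and Serpina1d. The other 16, among them Serpina5, Serpina11 and Serpina12, were at or below 0.3 TPM in every segment.

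Serpins of other clades followed no single order. Of 26, 11 reached 1 TPM. For this list and those below, the shares of all genes compared were 17.7% higher and 6.62% lower for S2 minus S1. They were 13.1% and 10.5% for S3 minus S1, and 2.24% and 8.74% for S3 minus S2. In S2, 4 were 2-fold or more above S1 and 2 below it (median difference 0.63, against 0.18 over all genes compared). For S3 minus S1 the numbers were 2 higher and 4 lower (median -0.21, against 0.01), and for S3 minus S2 0 higher and 2 lower (median -0.40, against -0.12). Serpinf2, the plasmin inhibitor alpha-2-antiplasmin, was higher in S2 and S3 than in S1 but level between S2 and S3. It stood at 27.9 TPM in S1, 135.0 TPM in S2 and 133.5 TPM in S3. Serpinb6a, an intracellular inhibitor, went the other way, with 36.9, 12.8 and 14.7 TPM. Serpind1, heparin cofactor II, stood at 3.5 TPM in S1, 0.2 TPM in S2 and 0.1 TPM in S3. Serping1, the inhibitor of complement C1, peaked in S2 at 11.7 TPM, against 1.2 TPM in S1 and 0.9 TPM in S3. Serpinh1, the collagen chaperone, was nearly level at 42.5, 52.3 and 53.1 TPM.

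**Figure D4:**
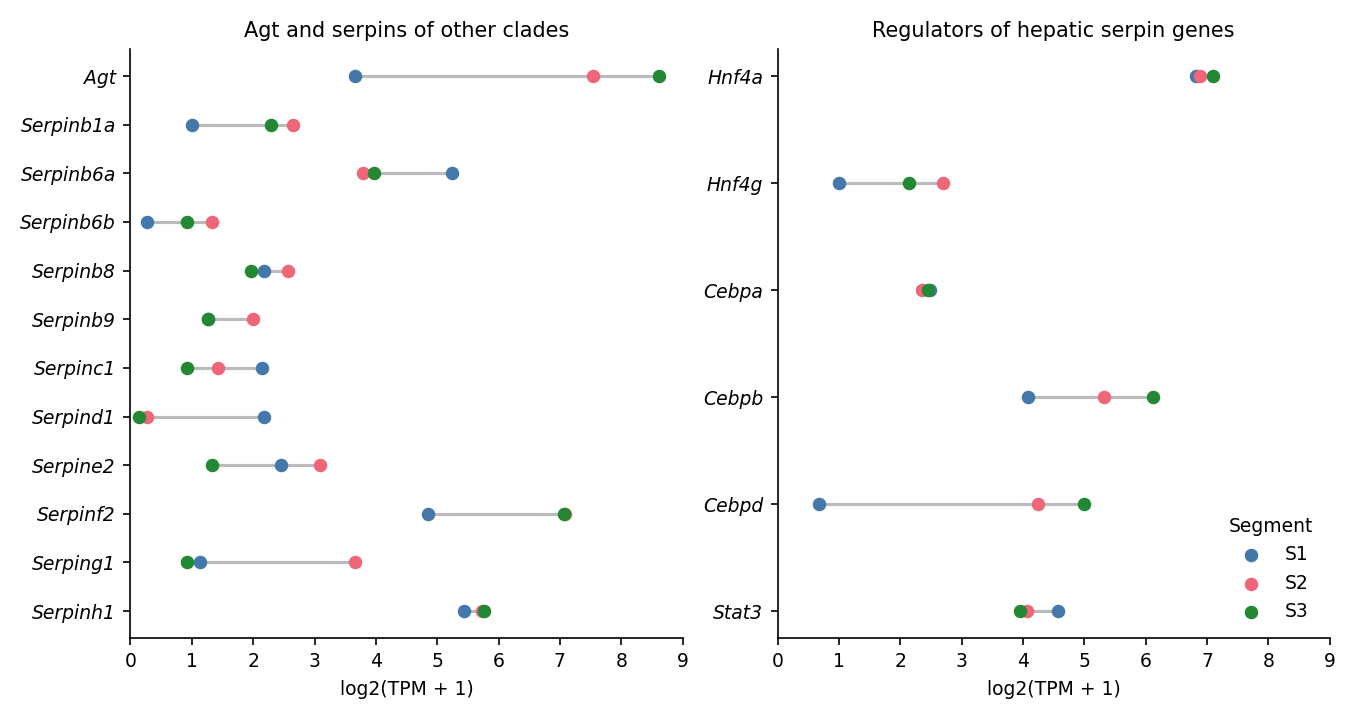
Levels as log2(TPM + 1) in S1, S2 and S3 for Agt and the serpins of other clades of at least 1 TPM (left) and for regulators known for hepatic serpin genes of at least 1 TPM (right). Agt runs from 11.6 TPM in S1 through 184.2 TPM in S2 to 389.6 TPM in S3, and Cebpd has the widest spread among the regulators.

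Among 19 listed genes, proteases of the kinds that serpins act on plus the cofactor Proz, the neutrophil and lymphocyte enzymes Elane, Prtn3, Ctsg and Gzmb were at or below 0.1 TPM in every segment. Of the 14 that reached 1 TPM, 4 in S2 stood 2-fold or more above S1 and 4 below it, with 5 higher and 3 lower in S3 than in S1. For S3 minus S2, 1 was higher and 1 lower. The median differences were 0.42, 0.43 and 0.13, against 0.18, 0.01 and -0.12 over all genes compared. Proc, the anticoagulant protease zymogen protein C, stood at 52.1 TPM in S1, 239.2 TPM in S2 and 291.8 TPM in S3. Plau, urokinase, stood at 2.6, 91.4 and 148.3 TPM, and the membrane protease St14 at 0.5, 17.4 and 34.7 TPM. The lysosomal cathepsins Ctsl (1566.4, 509.3 and 420.6 TPM) and Ctsb (1322.1, 318.1 and 274.6 TPM) were highest in S1. Beside Serpina10, its cofactor Proz stood at 7.0, 6.5 and 3.9 TPM and its target F10 at 5.0, 0.3 and 0.2 TPM.

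Beside Serpina6, the glucocorticoid genes went both ways against S1, and their median was below 0 for S3 minus S2. Of 8, 7 reached 1 TPM; 3 stood 2-fold or more above S1 in S2 and 1 below it, and 1 was higher and 3 lower in S3 than in S1. For S3 minus S2, 0 were higher and 2 lower. The medians of the 3 contrasts were 0.19, -0.30 and -0.84, against 0.18, 0.01 and -0.12 over all genes compared. Nr3c1, the glucocorticoid receptor, stood at 28.1 TPM in S1, 24.6 TPM in S2 and 11.9 TPM in S3. Fkbp5, a known glucocorticoid target, stood at 62.1, 11 and 5.7 TPM. Of the same list, Tsc22d3 also fell, at 66.6, 39.5 and 31.0 TPM, whereas Sgk1 was highest in S2, at 51.3, 121.9 and 73.9 TPM. Hsd11b1, which regenerates active glucocorticoid, stood at 2.4, 26.7 and 8.6 TPM.

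Of 11 regulators known for hepatic serpin genes, 6 reached 1 TPM. In S2, 3 were at least 2-fold higher than in S1, beside 17.7% of all genes compared, and in S3, 3 were, beside 13.1%. In both, 0 were lower, beside 6.62% and 10.5%. Between S3 and S2 no regulator differed 2-fold, beside 2.24% higher and 8.74% lower. The medians were 0.65 for S2 minus S1, 0.71 for S3 minus S1 and 0.16 for S3 minus S2. Over all genes compared they were 0.18, 0.01 and -0.12. Cebpd stood at 0.6 TPM in S1, 17.9 TPM in S2 and 30.7 TPM in S3, and Cebpb at 15.9, 38.9 and 68.3 TPM. Hnf4g, the other one counted as higher, stood at 1.0, 5.5 and 3.4 TPM, lower in S3 than in S2. Cebpa was level at 4.6, 4.1 and 4.5 TPM. Hnf4a, a nuclear receptor of liver and proximal tubule, differed less than 2-fold in each contrast, at 112.2, 117.2 and 136.3 TPM. Foxa1, Foxa2 and Foxa3, the liver pioneer factors, were at or below 0.2 TPM in every segment.

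Other plasma proteins of the hepatocyte went both ways, more of them lower than higher in S2 and S3 than in S1. Of 14, 9 reached 1 TPM; 1 stood 2-fold or more above S1 in S2 and 3 below it, 2 were higher and 5 lower in S3 than in S1, and 1 higher and 2 lower in S3 than in S2. The medians were -0.87 for S2 minus S1, -1.21 for S3 minus S1 and -0.14 for S3 minus S2. Over all genes compared they were 0.18, 0.01 and -0.12. Alb, albumin, stood at 8.5 TPM in S1, 3.9 TPM in S2 and 0.4 TPM in S3. Ttr, transthyretin, stood at 184.7, 22.6 and 5.6 TPM and Trf, transferrin, at 121.4, 17.9 and 16.1 TPM. Apoa1 went with the members, at 0.2, 7.0 and 10.4 TPM.

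The acute-phase response raises Serpina3n in the liver, and 7 of its 18 listed genes reached 1 TPM here. In S2, 1 of them stood 2-fold or more above S1 and 1 below it, in S3 0 stood above S1 and 2 below it, and 0 differed in either direction between S3 and S2. The medians were -0.49, -0.26 and -0.20. Over all genes compared they were 0.18, 0.01 and -0.12, and the same values stand beside the other lists of this paragraph. Lcn2 did not pass 0.4 TPM in any segment and Saa3 did not pass 0.2 TPM. Of 12 measured genes of secretion and folding, 1 was at least 2-fold higher in S2 than in S1 and 3 in S3 than in S1, with 0 lower and 0 in either direction between S3 and S2. Their medians were 0.02, 0.12 and 0.11. Erp29, a chaperone of the endoplasmic reticulum, was one of the 3, at 97.0 TPM in S1, 265.7 TPM in S2 and 356.3 TPM in S3. Lman1, a cargo receptor for secreted glycoproteins, stood at 30.4, 54.9 and 57.1 TPM. Of 8 genes of protein uptake, 1 was higher and 1 lower in S2 than in S1, 0 higher and 2 lower in S3 than in S1, and 0 higher and 1 lower in S3 than in S2, with medians of -0.27, -0.80 and -0.16.

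Interferon raises Serpina3g in macrophages, and the interferon response genes were mostly highest in S2. Of 11 that reached 1 TPM, 10 were at least 2-fold higher in S2 than in S1, 1 higher and 1 lower in S3 than in S1, and 0 higher and 6 lower in S3 than in S2. The medians were 1.46, 0.56 and -1.08, against 0.18, 0.01 and -0.12 over all genes compared. Irf1 stood at 3.9 TPM in S1, 20.9 TPM in S2 and 6.2 TPM in S3. Serpina3g itself did not pass 0.3 TPM. The markers of endothelial and immune cells given below were also highest in S2 as sums. Their part in this list was not tested.

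Each set of segment markers had its highest sum in the segment of its label. The 7 S1 markers summed to 19134.3 TPM in S1, 2529.5 TPM in S2 and 34.6 TPM in S3. The 4 S2 markers summed to 310.1 TPM in S1, 815.6 TPM in S2 and 25.2 TPM in S3. Conversely, 8 S3 markers summed to 11.6 TPM in S1, 6158.0 TPM in S2 and 12866.9 TPM in S3. In the S2 column the S3 markers, at 6158.0 TPM, and the S1 markers, at 2529.5 TPM, both summed to more than the S2 markers, at 815.6 TPM. Of that S1 marker sum, Slc34a1 gave 2226.8 TPM. The lists differ in length and in the levels of their genes, so their sums do not measure how much of each segment a column held. Of the 8 S3 markers, 8 were at least 2-fold higher in S2 than in S1 and 1 in S3 than in S2. Slc22a30, listed for S2, was level at 22.9 TPM in S2 and 22.4 TPM in S3. The part of S3 tubule in the S2 column was not tested. RNA of other cells was also present, and the endothelial, immune and stromal sums were highest in S2. The 8 endothelial markers summed to 69.5 TPM in S1, 649.5 TPM in S2 and 259.3 TPM in S3, and 8 of 8 were at least 2-fold higher in S2 than in S1 and lower in S3 than in S2. The 10 immune markers summed to 55.8, 277.7 and 93.3 TPM. Of these Csf1r gave 0.5, 32.0 and 46.9 TPM, and without it, a choice made after seeing the values, the sums were 55.3, 245.7 and 46.4 TPM. Most of what remained came from 1 gene, Cd74, at 50.1, 192.7 and 37.8 TPM. The 8 stromal and mural markers summed to 2.5, 20.7 and 2.3 TPM. Red cell markers summed to at most 0.9 TPM and podocyte markers to at most 16.6 TPM. Distal tubule and collecting duct markers summed to 31.1, 8.9 and 4.0 TPM, of which Aqp3 gave 28.3 TPM in S1. Limb markers summed to 36.2, 405.4 and 591.9 TPM, mostly from Aqp1, which the proximal tubule also makes. Without Aqp1, likewise chosen after seeing the values, they summed to 3.2, 22.7 and 30.9 TPM. Umod, the thick limb gene for uromodulin, gave most of that in S2 and S3, at 0.2 TPM in S1, 21.1 TPM in S2 and 29.1 TPM in S3, while Slc12a1, the defining transporter of the thick limb, did not pass 1.0 TPM. The summed members were higher in S3 than in S2, as were the S3 marker sum and the limb sum with or without Aqp1. The other marker sums, among them the endothelial, immune and stromal ones, were lower in S3. The part of other cells in the levels of single members was not tested. In tissue of this kind, fewer cells that express a gene and less of its RNA per cell cannot be told apart.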

How the data were processed

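RNA-seq of female S1, S2 and S3 tubules was used. Per the labels' protocols, cDNA was made with the SMARTer V4 kit in 10 to 12 PCR cycles and sequenced as 50-base read pairs, with no molecular identifiers or strand marking named. Per the submitters' processing notes the build was mm10 and the tools included STAR and RSEM. Which tool made the table, its gene annotation, and how libraries were combined are not given in the sources used here. As deposited, TPM came as 1 value per gene and segment, rounded to 1 decimal. The columns summed to 999906.7, 999988.2 and 999910.6. TPM keeps no depth, so no interval or detection limit was computed. Another 5 value columns of the table could not be matched to labelled RNA-seq samples and were left out.

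Genes of at least 1 TPM in at least 1 segment (16053) were compared by log2(TPM + 1), a scale that understates the fold of low genes. A difference of at least 1, which is 2-fold, was counted as higher or lower. There are no replicates, so no test was made; the code was tested on simulated data. Python 3.11.15, numpy 2.4.6 and pandas 2.3.3 were used. The 10 members matched by ID. Named genes are the members, the cluster's genes, the 20 gene lists besides the members, and, for each member of at least 10 TPM, the 3 nearest genes (leaving out other members and symbols of the form Gm plus digits or ending in Rik). The members and lists were chosen with earlier results of these data known. A planned comparison of member proteins was not made, and a few planned genes and motifs are not reported here. Alternatives were other pseudocounts, filters and scalings, and summed copies.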

Additional observations from a re-analysis of the deposited data

How the results depend on the processing

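No paired analysis was possible because each segment has 1 value per gene, and leaving out single libraries was not possible for the same reason. Over 6 alternatives to the pseudocount, the filter and the scaling, 110 of 120 differences of single members stayed on their side of the 2-fold threshold, 6 moved past it and 4 fell under it. Of those of 2-fold or more, 0 changed direction; under 2-fold, Serpina1b for S2 minus S1 was -0.04 with quantile normalization, against 0.26, and Serpina1c for S3 minus S2, at 0.06, came to 0.0 with rescaling. With pseudocount 0.1 the members higher in S2 than in S1 numbered 7, against 4; the 3 added (Serpina1b, Serpina6 and Serpina10) stood between 0.2 and 0.8 TPM in S2. With Serpina1a to Serpina1e summed as 1 feature, 2 were higher in S2 than in S1 and 4 in S3 than in S1, by construction, since 5 genes became 1. The summed copies differed by 1.04 for S3 minus S2 under median-of-ratios scaling, against 0.87; the cause was not tested. Pseudocount 5 put Serpina1a (0.97 for S2 minus S1, 0.53 for S3 minus S1) and Serpina1b (0.38 for S3 minus S1, 0.32 for S3 minus S2) under 2-fold. Rescaling without mitochondrially encoded genes, Gpx3 and Kap put Serpina10 at 1.03 for S2 minus S1. Counts over all genes moved by more than 1.5 times in several settings. For S2 minus S1, higher genes numbered 4738 with pseudocount 0.1, 994 with pseudocount 5 and 1504 with a filter of TPM 5, against 2840, and lower genes 575 with pseudocount 5, against 1062. For S3 minus S1, higher genes numbered 3201 and 1040 with pseudocounts 0.1 and 5, against 2108, and lower genes 879 with pseudocount 5, against 1681. For S3 minus S2, higher genes numbered 544, 105 and 183 in the first 3 of these settings, against 359, and lower genes 3129, 350 and 698, against 1403.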
